A study of Homo sapiens with 21 samples.

Results

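The genes described here are 53 Polycomb and trithorax chromatin regulators, taken by symbol from the 60728 gene rows of the deposited table of SK-N-BE(2) RNA-Seq libraries. All 53 were found, and all 53 were among the 18584 genes that passed the filter on low reads. They were sorted by known role into 12 genes of Polycomb repressive complex 2 (PRC2), 25 genes of PRC1 and of the PR-DUB deubiquitinase that removes its mark, and 16 enzymes and cofactors of histone H3 lysine 4 and lysine 27 methylation. Expression was read as the normalised read count, and each difference was taken on log2(normalised read count + 1), so that it understates the change of low genes.

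A single cell line was sampled, SK-N-BE(2), which was grown from a human neuroblastoma and carries amplified MYCN. Cells were collected 72 h after transduction with lentiviral shRNA, in 7 conditions of 3 libraries that the series calls biological triplicates. Control received a non-silencing shRNA, shARID1A.2 and shARID1A.4 an shRNA labelled for ARID1A, shARID1B.2 and shARID1B.3 an shRNA labelled for ARID1B, and shARID1A/B.2.3 and shARID1A/B.4.2 a combination labelled for both genes. ARID1A and ARID1B are the mutually exclusive large subunits of the canonical BAF (mSWI/SNF) chromatin remodeller. The libraries held 27954334 to 41077638 reads (median 34973565 over 21 libraries). MYCN ranged from 77312 to 426870 normalised reads over the libraries, the epithelial keratin KRT5 was at 0 in all 21, and the endothelial PECAM1 did not exceed 2.81.

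Polycomb and trithorax proteins set opposing marks on nucleosomes. PRC2 methylates lysine 27 of histone H3 through its catalytic subunit EZH2 or EZH1, and PRC1 places ubiquitin on histone H2A through RING1 or RNF2. Trithorax enzymes of the KMT2 and SETD1 family methylate lysine 4 of histone H3, and the demethylases KDM6A and KDM6B remove the PRC2 mark. BAF is itself a trithorax group complex that is known to oppose Polycomb on chromatin.

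ARID1A and ARID1B were read first, because they check the labels. ARID1A was at 6097, 6374 and 6463 in Control, 2169, 2159.9 and 2109 in shARID1A.2, 2289, 2157 and 2284 in shARID1A.4, 1962, 1882 and 1916 in shARID1B.2 and 2507, 2479.9 and 2449.7 in shARID1B.3. In the libraries labelled for both genes it stayed near Control, at 5510.3, 5752 and 5714 in shARID1A/B.2.3 and 5589, 5352 and 5379 in shARID1A/B.4.2. ARID1B was at 5793, 5804 and 5791 in Control, 2252, 2248 and 2224 in shARID1A.2, 3065, 3109.7 and 3126 in shARID1A.4, 2540.5, 2651 and 2607 in shARID1A/B.2.3 and 1886, 1881 and 1955 in shARID1A/B.4.2. It was at 5056, 4913 and 5043 in shARID1B.2 and 6182, 6038 and 6053 in shARID1B.3.

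The libraries labelled shARID1A were thus low in both genes, those labelled shARID1B were low in ARID1A and not in ARID1B, and those labelled shARID1A/B were low in ARID1B. On the log2 scale ARID1A differed from Control by -1.56 ± 0.029 (adjusted p = 6.50e-24) in shARID1A.2 and -1.72 ± 0.029 (adjusted p = 4.08e-24) in shARID1B.2, but by -0.16 ± 0.029 (adjusted p = 3.37e-05) in shARID1A/B.2.3 (± is the standard error throughout). ARID1B differed by -1.60 ± 0.023 (adjusted p = 7.74e-26) in shARID1A/B.4.2, -0.21 ± 0.023 (adjusted p = 1.45e-08) in shARID1B.2 and 0.07 ± 0.023 (adjusted p = 0.00898) in shARID1B.3. In 4 of the 6 silenced conditions, those labelled shARID1B and shARID1A/B, a gene named in the label was thus near its Control level. Labels are used below as written, and each result stands for the libraries labelled so, with these levels. What set the labels and these levels apart was not tested.

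**Figure D1:**
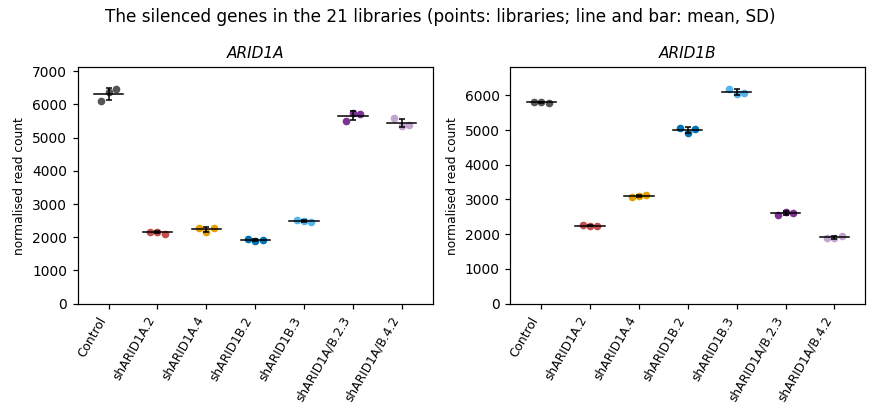
Normalised read counts of ARID1A (left) and ARID1B (right) in the 21 libraries by label; points are libraries, horizontal lines means and bars SD (n = 3). ARID1A was low in the libraries labelled shARID1A and shARID1B, and ARID1B was low in those labelled shARID1A and shARID1A/B.

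A member was called where its adjusted p, from limma over all 18584 genes, was under 0.05. The table was widely changed, so each count of members stands beside the share of all genes called. In shARID1A.2, 18 members were higher and 28 lower, against 37.9% and 38.2% of all genes, and in shARID1A.4, 21 were higher (background 37.0%) and 26 lower (36.6%). In shARID1B.2, 19 were higher (31.6%) and 27 lower (34.0%), and in shARID1B.3, 23 were higher (31.9%) and 21 lower (32.0%). The combination libraries gave 18 higher (35.2%) and 26 lower (34.0%) in shARID1A/B.2.3, and 17 higher (35.1%) and 28 lower (36.1%) in shARID1A/B.4.2. Lower calls outnumbered higher calls in 5 of the 6 conditions, with shARID1B.3 as the exception. With libraries scaled to total reads in place of the deposited size factors the split became 25 higher and 23 lower in shARID1A.2, 25 and 23 in shARID1B.2, and 27 and 19 in shARID1A/B.4.2, and with upper quartile scaling that of shARID1A.4 became 25 and 23. Which direction held more calls thus depends on the scaling in those 4 conditions, and shARID1A/B.2.3 had more lower than higher calls under each of the scalings tried. The share over all genes moved as well. Of the calls in shARID1A.2, 39.1% were higher for members and 49.8% for all genes, and 52.1% and 61.2% with total reads. In shARID1A/B.4.2 these were 37.8% and 49.3%, then 58.7% and 64.8%. In shARID1B.3 the share of members was the greater, at 52.3% and 49.9%, then 58.1% and 53.2%.

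Most of these changes were small. Calls with a log2 difference of at least 0.5 in either direction numbered 22 in shARID1A.2 (47.2% of all genes), 20 in shARID1A.4 (44.0%), 9 in shARID1B.2 (30.2%), 7 in shARID1B.3 (28.7%), 20 in shARID1A/B.2.3 (37.5%) and 15 in shARID1A/B.4.2 (39.7%). As shares of 53 these are near or below the background in each condition. The median size of the members' log2 differences was 0.343 in shARID1A.2, 0.33 in shARID1A.4 and 0.206 in shARID1B.3, against 0.519, 0.487 and 0.327 over all genes. In bulk RNA a lower count can come from fewer cells of a kind or from less RNA per cell, and these cannot be told apart.

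5 members were higher in all 6 silenced conditions (9.4% of 53; 6.5% of all genes tested). These were KDM6B, KMT2B and KMT2D of the histone H3 enzymes, PCGF1 of PRC1, and JARID2 of PRC2. 10 members were lower in all 6 (18.9%; 7.5% of all genes), namely SUZ12, RBBP4 and RBBP7 of the PRC2 core, its accessory subunits MTF2 and PHF19, PCGF6, PHC1, PHC3 and BCOR of PRC1, and KDM6A. A further 26 were called in both directions in different conditions (49.1%; 41.8%). The 6 comparisons share the same 3 Control libraries and are not independent of each other. RBBP7 in shARID1A/B.4.2 and PHC1 in shARID1A.2 were among the smallest of these lower calls and turned to higher calls when libraries were scaled to total reads or by upper quartile. Smaller still was the lower call of BCOR in shARID1B.3, at -0.06 ± 0.025 (limma, adjusted p = 0.0377).

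**Figure D2:**
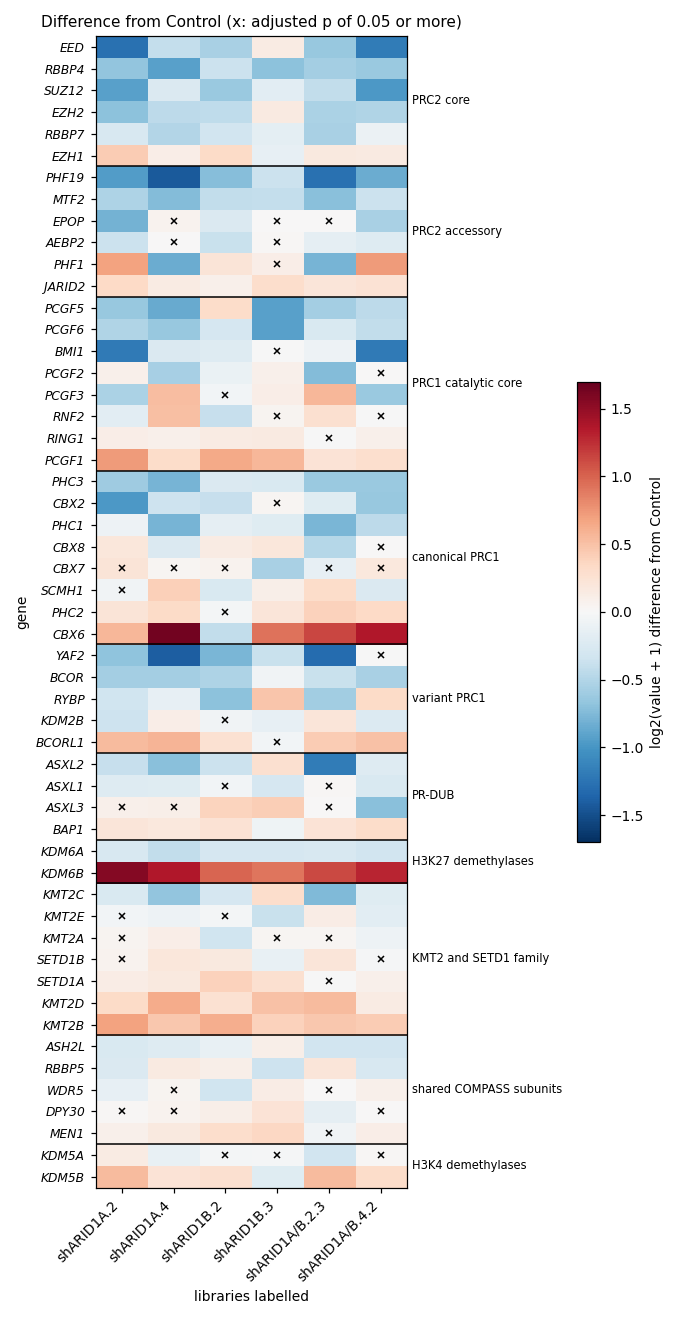
Difference from Control in log2(normalised read count + 1) for the 53 genes (rows, by role) in the 6 silenced conditions (columns); red is higher, blue is lower, and a cross marks an adjusted p of 0.05 or more. The rows of KDM6B, KMT2B and KMT2D are red throughout, those of RBBP4, PHF19 and MTF2 are blue throughout, and PHF1, PCGF3 and CBX6 change colour between columns.

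The PRC2 core holds the methyltransferase EZH2 or its paralogue EZH1, the scaffold SUZ12, the mark-reading subunit EED, and the histone chaperones RBBP4 and RBBP7. In Control, per kb of exon, EZH2 stood at 1190.8 ± 22.3 normalised reads (SD, n = 3), RBBP7 at 926.7 ± 2.77, RBBP4 at 782.3 ± 11.72, SUZ12 at 352.8 ± 9.96, EED at 224.6 ± 1.31 and EZH1 at 127.2 ± 5.66. In the shARID1A, shARID1B.2 and shARID1A/B libraries, EZH2, EED, SUZ12, RBBP4 and RBBP7 were all called lower and EZH1 was called higher. In shARID1B.3 the pattern differed, with EZH2 and EED called higher, EZH1 lower, and SUZ12, RBBP4 and RBBP7 lower. The median log2 difference of the 6 core genes was -0.678 in shARID1A.2, -0.425 in shARID1A.4, -0.4 in shARID1B.2, -0.153 in shARID1B.3, -0.548 in shARID1A/B.2.3 and -0.572 in shARID1A/B.4.2. The median over all genes was between 0.01 and 0.018 in each.

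Sequence just before the start sites is printed for 4 of these core genes, EZH2, SUZ12, RBBP4 and EZH1. SUZ12 and RBBP4 were called lower in all 6 conditions. EZH2 was called lower and EZH1 higher in 5, with shARID1B.3 as the exception described above. EED (lower in 5) and RBBP7 (lower in 6) are not printed. RefSeq promoter windows (GRCh38.p14) were found for 46 of the 53 genes. For 31 of these 46, the bases after the start lay in a GENCODE 29 transcript of the gene. The starts of the others are less certain. The lines hold the part of each window that touches no GENCODE 29 exon, read 5′ to 3′ on the gene's strand. Capitals mark E2F words (TTTCCCGC, TTTGGCGC, TTTCGCGC or TTTGCCGC) and the CCAAT word, on either strand. The EZH2 stretch is chr7:148884322-148884541, minus strand, that of SUZ12 chr17:31936757-31937006, plus strand, that of RBBP4 chr1:32650958-32651141, plus strand, and that of EZH1 chr17:42745050-42745290, minus strand.
EZH2: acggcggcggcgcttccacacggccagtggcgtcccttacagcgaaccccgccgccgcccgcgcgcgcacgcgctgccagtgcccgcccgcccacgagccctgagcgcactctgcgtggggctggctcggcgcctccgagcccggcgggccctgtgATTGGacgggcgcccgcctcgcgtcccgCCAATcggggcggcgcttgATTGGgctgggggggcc
SUZ12: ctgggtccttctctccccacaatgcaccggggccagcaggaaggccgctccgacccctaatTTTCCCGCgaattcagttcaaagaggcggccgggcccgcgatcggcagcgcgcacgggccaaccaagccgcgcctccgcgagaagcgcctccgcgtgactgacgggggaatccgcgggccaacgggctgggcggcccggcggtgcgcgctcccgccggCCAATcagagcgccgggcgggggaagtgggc
RBBP4: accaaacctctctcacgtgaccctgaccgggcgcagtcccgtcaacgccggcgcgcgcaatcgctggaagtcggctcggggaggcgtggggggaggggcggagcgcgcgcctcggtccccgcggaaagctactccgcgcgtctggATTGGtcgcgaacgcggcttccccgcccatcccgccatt
EZH1: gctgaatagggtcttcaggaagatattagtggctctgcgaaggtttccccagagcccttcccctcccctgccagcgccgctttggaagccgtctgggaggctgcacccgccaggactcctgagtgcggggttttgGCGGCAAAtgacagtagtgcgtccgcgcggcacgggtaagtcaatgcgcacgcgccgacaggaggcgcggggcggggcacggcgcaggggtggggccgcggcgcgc

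In these stretches EZH2 has 3 CCAAT words, RBBP4 has 1, SUZ12 has 1 beside an E2F word, and EZH1 has an E2F word only. The full windows hold the 250 bases before the RefSeq start and can include exon bases. In them an E2F word was found in 2 of the 6 core genes (SUZ12 and EZH1) and in 3 of the 46 members with a window. The share was 4.3% of the 12031 windows of genes tested. A CCAAT word was found in the full windows of 5 of the 6 core genes and 15 of the 46 members. The share was 34.9% of the windows of genes tested. In EED and RBBP7 that word touched annotated exon. Their parts without exon, 41 bases long in EED, held none. Without exon bases, only EZH2, SUZ12 and RBBP4 of the core kept a CCAAT word. E2F words do not overlap CCAAT words in the lines above. The CCAAT word was chosen after the sequences had been read. A match describes letters in the window and not a bound site.

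EZH2 was at 5304, 5498 and 5352 in Control, 3311, 3312 and 3378 in shARID1A.2, 3830.1, 4123 and 3926 in shARID1A.4, and 3976, 4043 and 3930.4 in shARID1B.2. The remaining libraries held 5801, 5991 and 6192 in shARID1B.3, 3763, 3649 and 3715 in shARID1A/B.2.3, and 3792, 3831 and 3692 in shARID1A/B.4.2. The groups did not overlap with Control, and the shARID1B.3 libraries were the only ones above it. Its log2 difference was -0.69 ± 0.028 (adjusted p = 3.42e-17) in shARID1A.2, -0.54 ± 0.028 (adjusted p = 7.74e-15) in shARID1A/B.2.3 and 0.15 ± 0.028 (adjusted p = 3.16e-05) in shARID1B.3. EZH1, which makes a PRC2 of lower catalytic activity, was at 862, 935 and 871 in Control, 1164, 1206 and 1214 in shARID1A.2, 965, 947 and 969 in shARID1A.4, and 1114, 1148 and 1081 in shARID1B.2, and at 801, 813 and 809 in shARID1B.3, 979, 1028 and 990.5 in shARID1A/B.2.3, and 1005, 986 and 979 in shARID1A/B.4.2. The log2 ratio of EZH1 to EZH2 was therefore -2.60 ± 0.037 in Control (SD, n = 3), -1.48 ± 0.026 in shARID1A.2, -1.84 ± 0.023 in shARID1B.2 and -2.89 ± 0.041 in shARID1B.3. EZH2 remained the more abundant transcript in every library, on values not scaled to length.

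EED showed the widest change of the core. It was at 1573, 1568 and 1586 in Control, 664, 639.6 and 653 in shARID1A.2, 1181, 1186 and 1201 in shARID1A.4, and 1085, 1102 and 1033 in shARID1B.2, then at 1721, 1723 and 1771 in shARID1B.3, 1008, 1013 and 1013 in shARID1A/B.2.3, and 646, 718 and 704 in shARID1A/B.4.2. The lowest EED libraries were those of shARID1A.2 and shARID1A/B.4.2, with -1.27 ± 0.037 (adjusted p = 4.36e-20) and -1.19 ± 0.037 (adjusted p = 2.29e-19). SUZ12 was at 2235, 2355 and 2339.6 in Control, 1225, 1215 and 1224 in shARID1A.2, 1929.6, 1920.5 and 1993 in shARID1A.4, and 1527, 1452 and 1494 in shARID1B.2, then at 1968, 2054 and 2078 in shARID1B.3, 1719, 1806 and 1669.6 in shARID1A/B.2.3, and 1150.5, 1153 and 1207 in shARID1A/B.4.2, and it was lowest in the same pair, with -0.92 ± 0.034 (adjusted p = 5.90e-18) and -0.98 ± 0.034 (adjusted p = 2.29e-18). The transcribed pseudogene SUZ12P1 had a mean of 14.9% of that of SUZ12, so reads split between the copies leave SUZ12 values uncertain by that share.

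RBBP4 was lower in every silenced library than in any Control library. Its counts were 7531, 7380.4 and 7315 in Control, 4632, 4750.4 and 4634 in shARID1A.2, 3869, 3896 and 3913 in shARID1A.4, and 5796, 5676 and 5776 in shARID1B.2, and 4489, 4486 and 4681 in shARID1B.3, 5013, 4932 and 4944 in shARID1A/B.2.3, and 4842, 4824 and 4686 in shARID1A/B.4.2. Unlike EZH2 and EED, it fell clearly in shARID1B.3 too, by -0.70 ± 0.022 (adjusted p = 7.53e-19) on the log2 scale. RBBP7, its paralogue, gave -0.27 in shARID1A.2, -0.50 in shARID1A.4, -0.32 in shARID1B.2, -0.17 in shARID1B.3, -0.56 in shARID1A/B.2.3 and -0.10 in shARID1A/B.4.2.

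The genes of a proliferation list were lower in the 5 conditions in which EZH2 and EED were called lower. Of its 20 genes, 20 were called lower in shARID1A.2, shARID1A.4, shARID1B.2, shARID1A/B.2.3 and shARID1A/B.4.2, against 34.0% to 38.2% of all genes, with medians of -1.19, -1.13, -0.62, -1.15 and -1.02 on the log2 scale. In shARID1B.3, 10 were lower (background 32.0%), 2 higher and 8 not called, with a median of -0.10. The core genes did not all move alike. In shARID1B.3, RBBP4, SUZ12 and RBBP7 were called lower too, at -0.70, -0.18 and -0.17. EZH2 and EED were called higher there, at 0.15 and 0.14. EZH1 was called lower in shARID1B.3 and higher in the other 5 conditions. Thymidylate synthase TYMS, the lowest of the list in shARID1A.4, differed by -2.28 there and by -0.28 in shARID1B.3. The part of cell proliferation in the PRC2 levels was not tested.

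**Figure D3:**
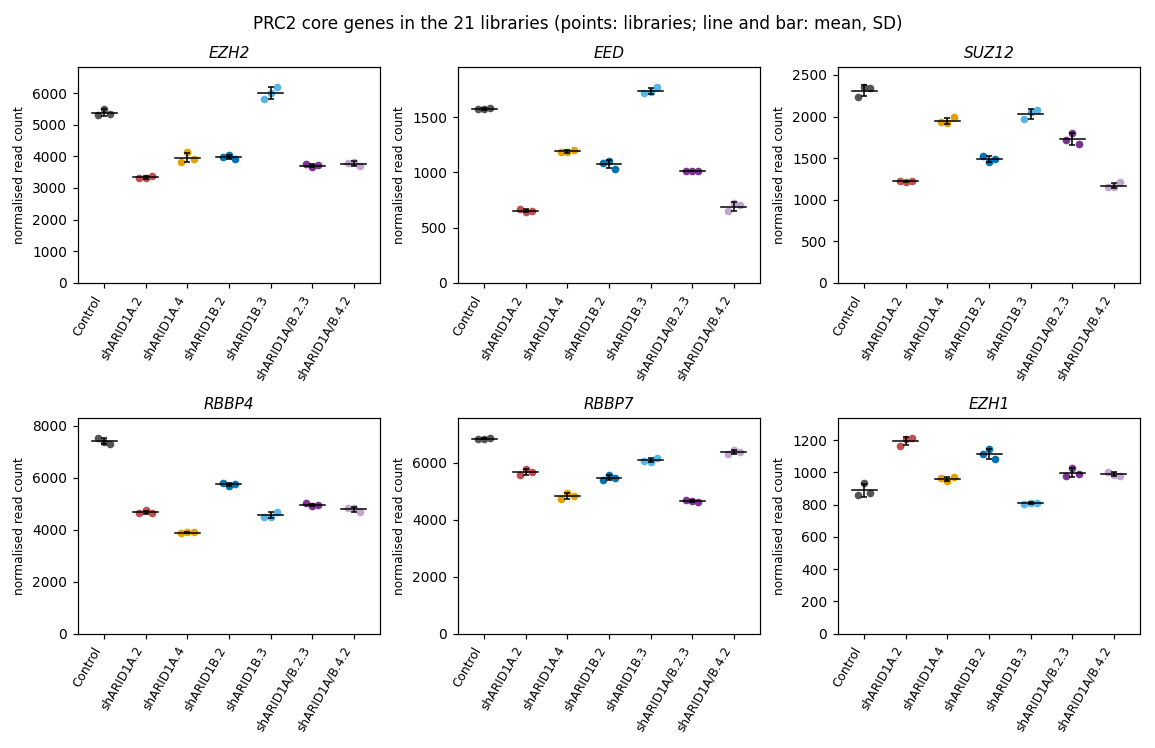
Normalised read counts of the 6 PRC2 core genes in the 21 libraries by label; points are libraries, horizontal lines means and bars SD (n = 3), and each axis starts at 0. EZH2 and EED lie below Control except in shARID1B.3, RBBP4 lies below Control in all 6 silenced conditions, and EZH1 lies above it except in shARID1B.3.

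The accessory subunits decide which form of PRC2 is assembled. MTF2, PHF1 and PHF19 are the Polycomb-like proteins of one form, which EPOP can join, and JARID2 and AEBP2 belong to the other. PHF19 was at 2376, 2448 and 2498 in Control, 1290.5, 1294 and 1194 in shARID1A.2, 897, 897 and 925 in shARID1A.4, and 1448, 1482 and 1522 in shARID1B.2, then 1896, 1818 and 1958 in shARID1B.3, 1003, 1020.1 and 1009.9 in shARID1A/B.2.3, and 1331, 1434 and 1317 in shARID1A/B.4.2, so no silenced library reached the Control range. It had the largest mean fall of the 53 genes, from -0.37 ± 0.038 (adjusted p = 8.14e-09) in shARID1B.3 to -1.43 ± 0.038 (adjusted p = 1.18e-20) in shARID1A.4. MTF2 also fell in all 6, by -0.73 ± 0.042 (adjusted p = 5.13e-14) in shARID1A.4 at most and -0.36 ± 0.042 (adjusted p = 3.71e-08) in shARID1A/B.4.2 at least. JARID2 rose in all 6, but by no more than 0.34 ± 0.031 (adjusted p = 4.45e-10), and its shARID1B.2 libraries overlapped Control.

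PHF1 did not keep to the direction of its paralogues MTF2 and PHF19. It was at 745, 889.8 and 838 in Control, 1348, 1329 and 1294 in shARID1A.2, and 1352, 1344 and 1376 in shARID1A/B.4.2, but at 479, 463 and 427 in shARID1A.4, and 469.8, 498 and 456 in shARID1A/B.2.3. The first pair of silenced conditions lay wholly above Control, against the fall of MTF2 and PHF19, and the second wholly below, the same way as both paralogues. In shARID1B.2 it was at 919, 1019 and 943 and in shARID1B.3 at 881, 903 and 883. The shARID1A.2 and shARID1A.4 libraries differed by 1.54 ± 0.055 (adjusted p = 2.65e-18), although they carry the same target label. EPOP gave -0.81 in shARID1A.2, 0.06 in shARID1A.4, -0.25 in shARID1B.2, 0.01 in shARID1B.3, 0.01 in shARID1A/B.2.3 and -0.55 in shARID1A/B.4.2, and was called lower only in shARID1A.2, shARID1B.2 and shARID1A/B.4.2. AEBP2 was called lower in 4 conditions, by -0.37 in shARID1A.2 and shARID1B.2 at most.

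PRC1 is built on the ubiquitin ligases RING1 and RNF2 with 1 of the PCGF proteins. RING1 was close to Control throughout, with log2 differences from -0.0016 (not called) to 0.15. RNF2 gave -0.18 in shARID1A.2, 0.52 in shARID1A.4, -0.39 in shARID1B.2, 0.04 in shARID1B.3, 0.27 in shARID1A/B.2.3 and -0.0025 in shARID1A/B.4.2, and was called higher in shARID1A.4 and shARID1A/B.2.3 and lower in shARID1A.2 and shARID1B.2. The shARID1A.2 call of RNF2 was lost with upper quartile scaling.

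The PCGF subunits, which define the separate PRC1 forms, moved apart from each other. PCGF1, of the BCOR-containing form, was at 680.1, 749 and 746 in Control and rose in all 6 conditions, from 0.24 ± 0.048 (adjusted p = 0.000113) in shARID1A/B.2.3 to 0.72 ± 0.048 (adjusted p = 1.03e-12) in shARID1A.2. PCGF6, of the form known from germ cell gene repression, was at 799.9, 805 and 834 in Control and at 450.0, 391 and 444 in shARID1B.3, and fell in all 6. PCGF5 fell in 5 and rose in shARID1B.2, on counts between 99 and 282 per library. PCGF2 gave 0.09 in shARID1A.2, -0.57 in shARID1A.4, -0.12 in shARID1B.2, 0.08 in shARID1B.3, -0.74 in shARID1A/B.2.3 and 0.0006 in shARID1A/B.4.2.

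BMI1 (PCGF4), a canonical PRC1 subunit known as a stem cell and proliferation factor, was lower in 2 conditions by more than 2-fold. It was at 3776, 3624 and 3599.8 in Control, 1521, 1638 and 1608 in shARID1A.2, and 1611, 1548 and 1616 in shARID1A/B.4.2. The other libraries were nearer to Control, with 3058, 3084 and 3122 in shARID1A.4, 3159.9, 3180.1 and 3121 in shARID1B.2, 3499, 3842 and 3628 in shARID1B.3, and 3580.4, 3489 and 3328 in shARID1A/B.2.3. Its log2 difference was -1.21 ± 0.034 (adjusted p = 3.24e-20) in shARID1A.2 and -1.20 ± 0.034 (adjusted p = 4.97e-20) in shARID1A/B.4.2. The read-through gene COMMD3-BMI1 overlaps it and had a mean of 8.6% of the BMI1 mean.

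PCGF3 divided the same conditions. Its counts were 3621, 3625 and 3668 in Control, 2520.3, 2463 and 2523 in shARID1A.2, and 2329, 2319.8 and 2368 in shARID1A/B.4.2, against 5409, 5136 and 5186 in shARID1A.4, and 5317, 5393 and 5427 in shARID1A/B.2.3. The differences from Control were -0.54 ± 0.023 (adjusted p = 1.49e-16) in shARID1A.2 and 0.53 ± 0.023 (adjusted p = 2.54e-16) in shARID1A.4. The shARID1B.2 libraries were not called for PCGF3, at -0.04 ± 0.023 (adjusted p = 0.107).

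Canonical PRC1 adds a CBX protein, which reads the PRC2 mark, and a PHC protein, which lets complexes join together. CBX2 and CBX6 moved in opposite directions in 4 conditions. CBX6 was at 2666, 2874 and 2787 in Control, 4109.9, 4125 and 4080.3 in shARID1A.2, 8652, 8739 and 8643 in shARID1A.4, and 2025, 2099 and 2132 in shARID1B.2, then 5510.1, 5159 and 5058 in shARID1B.3, 5980.1, 6157 and 6106 in shARID1A/B.2.3, and 7149.8, 7067 and 7175 in shARID1A/B.4.2. It was above Control in all silenced libraries other than those of shARID1B.2, which lay wholly below it. The rise reached 1.64 ± 0.029 (adjusted p = 3.87e-24) in shARID1A.4, the largest of the 53 genes in any condition, and the shARID1B.2 value was -0.41 ± 0.029 (adjusted p = 5.35e-12). CBX2 was at 4737, 4803 and 4779.9 in Control, 2449, 2381 and 2433 in shARID1A.2, 3745, 3729 and 3748 in shARID1A.4, and 3569.6, 3716 and 3617 in shARID1B.2, then 4983, 4926 and 4812 in shARID1B.3, 4154, 4113 and 4155 in shARID1A/B.2.3, and 3043, 3040.5 and 3045 in shARID1A/B.4.2. It was called lower in 5 conditions, by -0.98 ± 0.021 (adjusted p = 1.87e-22) in shARID1A.2, and in shARID1B.3 it gave 0.04 ± 0.021 (adjusted p = 0.113).

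The log2 ratio of CBX6 to CBX2 was -0.782 ± 0.044 in Control (SD, n = 3) and above 0 in shARID1A.2, shARID1A.4, shARID1B.3 and both combinations, reaching 1.23 ± 0.010 in shARID1A/B.4.2. In shARID1B.2 it was -0.801 ± 0.034. CBX8 gave 0.19 in shARID1A.2, -0.25 in shARID1A.4, 0.14 in shARID1B.2, 0.19 in shARID1B.3, -0.48 in shARID1A/B.2.3 and 0.01 in shARID1A/B.4.2. CBX7 was barely expressed, at 67 to 138 normalised reads per library, and was called only in shARID1B.3, at -0.55 ± 0.12 (adjusted p = 0.000347). Of the PHC genes, PHC1 and PHC3 were called lower in all 6 conditions and PHC2 higher in 5. PHC3 fell by -0.79 ± 0.061 (adjusted p = 1.59e-11) in shARID1A.4, and PHC1 by -0.80 ± 0.033 (adjusted p = 5.71e-17). The PHC1 values are uncertain, since the copy PHC1P1 had a mean of 12% of that of PHC1. PHC2 did not exceed 0.39 ± 0.026 (adjusted p = 1.15e-12), and SCMH1 gave -0.06 in shARID1A.2, 0.40 in shARID1A.4, -0.25 in shARID1B.2, 0.10 in shARID1B.3, 0.32 in shARID1A/B.2.3 and -0.24 in shARID1A/B.4.2.

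Variant PRC1 carries RYBP or its paralogue YAF2 in place of CBX. YAF2 was at 614, 654 and 595 in Control, 406, 391 and 361 in shARID1A.2, 243, 238 and 221 in shARID1A.4, and 383, 360.0 and 344 in shARID1B.2, then 485, 478 and 466 in shARID1B.3, 241, 255 and 254 in shARID1A/B.2.3, and 603, 626 and 631 in shARID1A/B.4.2. It was lowest in shARID1A.4 and shARID1A/B.2.3, at -1.41 ± 0.059 (adjusted p = 7.99e-17) and -1.31 ± 0.059 (adjusted p = 4.61e-16), and overlapped Control in shARID1A/B.4.2, at -0.0012 ± 0.059 (adjusted p = 0.987). RYBP, in contrast, was highest in shARID1B.3, with 2602, 2561 and 2627 in Control, 3537, 3634 and 3665 in shARID1B.3, and 3260.2, 3259 and 3251 in shARID1A/B.4.2. It was lower elsewhere, with 2014, 2115 and 2012 in shARID1A.2, 2291, 2351 and 2447 in shARID1A.4, 1646, 1533 and 1639 in shARID1B.2, and 1748, 1713 and 1713 in shARID1A/B.2.3. The 2 conditions labelled shARID1B differed in RYBP by -1.17 ± 0.030 (adjusted p = 1.13e-20) and those labelled shARID1A/B by -0.92 ± 0.030 (adjusted p = 7.77e-19).

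BCOR, the scaffold of the PCGF1 form, fell in all 6 conditions while PCGF1 rose. Its difference was -0.58 ± 0.025 (adjusted p = 1.86e-16) in shARID1A.2, -0.52 ± 0.025 (adjusted p = 4.37e-15) in shARID1B.2 and -0.06 ± 0.025 (adjusted p = 0.0377) in shARID1B.3. Its paralogue BCORL1 was called higher in 5 conditions, by 0.58 ± 0.053 (adjusted p = 4.52e-10) in shARID1A.4 at most. KDM2B, which brings this form to unmethylated CpG islands, gave -0.35 in shARID1A.2, 0.12 in shARID1A.4, -0.06 in shARID1B.2, -0.14 in shARID1B.3, 0.20 in shARID1A/B.2.3 and -0.23 in shARID1A/B.4.2.

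PR-DUB, made of BAP1 and an ASXL protein, takes the ubiquitin of PRC1 off histone H2A. BAP1 was called higher in 5 conditions, by 0.18 to 0.31, and lower in shARID1B.3 by -0.07 ± 0.026 (adjusted p = 0.0169). ASXL2 was at 4798, 4921 and 4830.2 in Control, 3704, 3609 and 3776 in shARID1A.2, 2906, 3026 and 2979.9 in shARID1A.4, and 3865, 3713 and 3759.7 in shARID1B.2, then 5858, 5773 and 5864 in shARID1B.3, 2020.0, 2208 and 2152 in shARID1A/B.2.3, and 4259, 4068 and 4169 in shARID1A/B.4.2. Only the shARID1B.3 libraries lay above Control, and the fall reached -1.19 ± 0.029 (adjusted p = 2.65e-21) in shARID1A/B.2.3. ASXL1 was called lower in 4 conditions, by -0.29 in shARID1B.3 at most. ASXL3 was at 36 to 95 normalised reads per library and was called lower in shARID1A/B.4.2, at -0.71 ± 0.15 (adjusted p = 0.000197). It was called higher in shARID1B.2, at 0.38 ± 0.15 (adjusted p = 0.0306), and shARID1B.3, at 0.42 ± 0.15 (adjusted p = 0.02).

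KDM6B, a demethylase of the PRC2 mark that is known to be induced by signals and stress, had the largest mean rise of the 53 genes. It was at 1358, 1461 and 1490.3 in Control, 4323, 3979.9 and 4404 in shARID1A.2, 3858, 3533 and 3678 in shARID1A.4, and 2839.5, 2864 and 2879 in shARID1B.2, then 2880.0, 2624 and 2592 in shARID1B.3, 3089, 3164 and 3099.9 in shARID1A/B.2.3, and 3592, 3506 and 3519.7 in shARID1A/B.4.2. The lowest silenced library, of shARID1B.3, was above the highest Control library. Its log2 difference was 1.56 ± 0.041 (adjusted p = 6.88e-21) in shARID1A.2, 1.36 ± 0.041 (adjusted p = 1.17e-19) in shARID1A.4 and 1.30 ± 0.041 (adjusted p = 3.96e-19) in shARID1A/B.4.2. It was smallest in shARID1B.3, at 0.91 ± 0.041 (adjusted p = 1.04e-15), and 0.99 ± 0.041 (adjusted p = 1.57e-16) in shARID1B.2, and the 2 conditions labelled shARID1B differed by 0.09 ± 0.041 (adjusted p = 0.0706).

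KDM6A (UTX), its X-linked paralogue and a subunit of the KMT2C and KMT2D complexes, was at 1394, 1362 and 1337 in Control, 1061, 1155 and 1167 in shARID1A.2, 1032, 968 and 1066 in shARID1A.4, and 1083, 1122 and 1145 in shARID1B.2, then 1161, 1116 and 1085 in shARID1B.3, 1097, 1192 and 1112 in shARID1A/B.2.3, and 1077, 1111 and 1093 in shARID1A/B.4.2. All 18 silenced libraries were below all 3 Control libraries. The falls were alike in size, from -0.27 ± 0.043 (adjusted p = 6.15e-06) in shARID1A/B.2.3 to -0.42 ± 0.043 (adjusted p = 4.36e-09) in shARID1A.4. The log2 ratio of KDM6B to KDM6A was 0.073 ± 0.10 in Control (SD, n = 3), 1.91 ± 0.12 in shARID1A.2 and 1.27 ± 0.040 in shARID1B.3.

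Of the histone H3 lysine 4 methyltransferases, KMT2B and KMT2D were called higher in all 6 conditions. KMT2B, which acts at promoters, was at 1763, 1845 and 1866 in Control and between 2341 and 3054 in the silenced libraries, and rose by 0.68 ± 0.037 (adjusted p = 2.04e-14) in shARID1A.2 at most. KMT2D, which acts at enhancers, was at 8044, 8006 and 8189 in Control, 10399.5, 9871 and 10245 in shARID1A.2, 13123, 12302 and 12241 in shARID1A.4, and 10076, 8959 and 9886 in shARID1B.2, then 12035, 10913 and 11290.0 in shARID1B.3, 11119, 12204 and 11901 in shARID1A/B.2.3, and 9238, 8548 and 8998 in shARID1A/B.4.2. Its rise was 0.64 ± 0.042 (adjusted p = 8.01e-13) in shARID1A.4 and 0.14 ± 0.042 (adjusted p = 0.00383) in shARID1A/B.4.2. Its paralogue KMT2C was at 6915, 7189 and 6954 in Control, 6012, 5723 and 5824 in shARID1A.2, 4586, 4258 and 4370.1 in shARID1A.4, and 5963, 5583 and 5736 in shARID1B.2, then 8826, 8457 and 8595 in shARID1B.3, 4111, 4248 and 4183 in shARID1A/B.2.3, and 6276, 5855 and 6195 in shARID1A/B.4.2. KMT2C thus lay below Control in 5 conditions and above it in shARID1B.3, at 0.30 ± 0.031 (adjusted p = 7.78e-09).

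KMT2A was called in 3 conditions, with the fall in shARID1B.2, -0.34 ± 0.035 (adjusted p = 4.59e-09), as its largest value. Its other calls were 0.11 in shARID1A.4 and -0.08 in shARID1A/B.4.2, and the latter turned to a higher call with total reads (0.107) and upper quartile (0.083). KMT2E gave -0.04 in shARID1A.2, -0.09 in shARID1A.4, -0.03 in shARID1B.2, -0.38 in shARID1B.3, 0.12 in shARID1A/B.2.3 and -0.17 in shARID1A/B.4.2. SETD1A, which forms the general lysine 4 trimethylase, was called higher in 5 conditions, by 0.40 in shARID1B.2 at most, and SETD1B in 3. SETD1B was called lower in shARID1B.3, at -0.13 ± 0.040 (adjusted p = 0.00864).

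**Figure D4:**
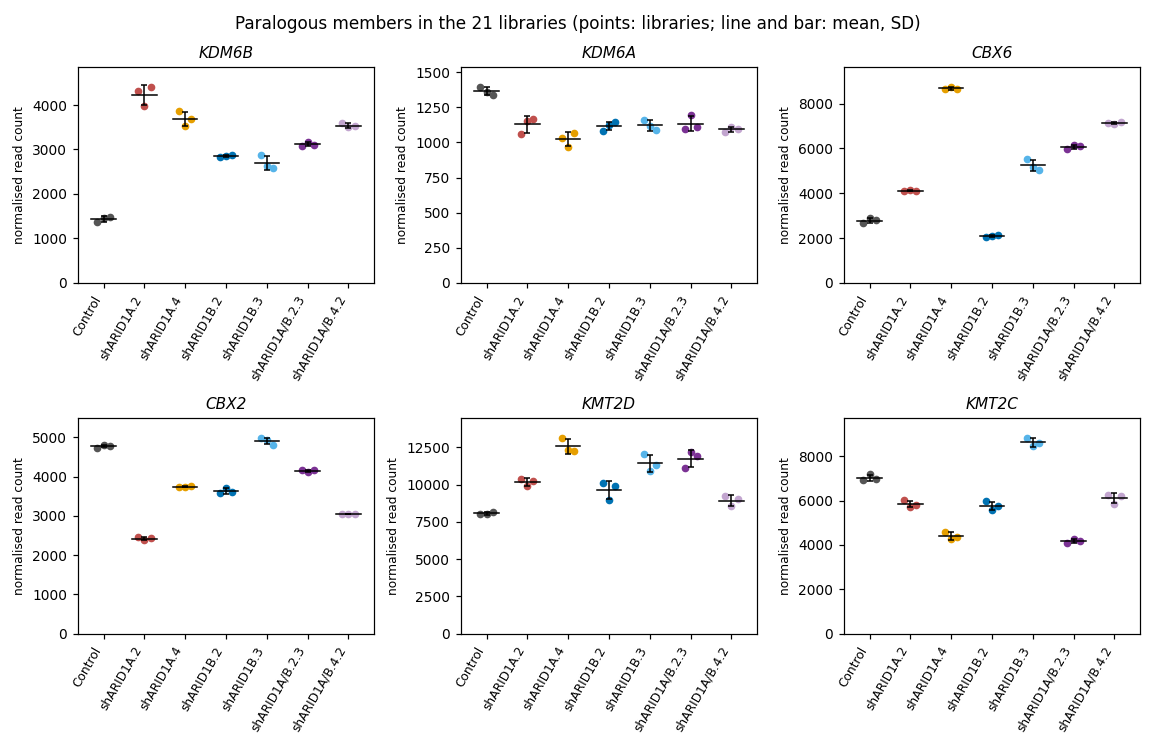
Normalised read counts of the paralogues KDM6B and KDM6A, CBX6 and CBX2, and KMT2D and KMT2C in the 21 libraries by label; points are libraries, horizontal lines means and bars SD (n = 3). KDM6B is above and KDM6A below Control in all 18 silenced libraries, and KMT2C is above Control in shARID1B.3 only.

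The cofactors of the lysine 4 methyltransferases changed little. WDR5, ASH2L, RBBP5, DPY30 and MEN1 gave no log2 difference of 0.5 or more in any condition. ASH2L was called lower in 5 conditions, by -0.33 ± 0.028 (adjusted p = 1.12e-10) in shARID1A/B.4.2 at most, and higher in shARID1B.3 (0.10). RBBP5 was called lower in shARID1A.2, shARID1B.3 and shARID1A/B.4.2 and higher in the other 3. WDR5 was lowest in shARID1B.2, at -0.34 ± 0.024 (adjusted p = 4.75e-12), and MEN1 highest in shARID1B.3, at 0.36 ± 0.034 (adjusted p = 1.68e-09). DPY30 was called in 3 conditions, with 0.23 in shARID1B.3 as its largest value.

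The lysine 4 demethylases KDM5A and KDM5B were unlike. KDM5B was called higher in 5 conditions, by 0.53 ± 0.023 (adjusted p = 1.71e-16) in shARID1A.2 and 0.53 ± 0.023 (adjusted p = 2.64e-16) in shARID1A/B.2.3, and lower in shARID1B.3 by -0.21 ± 0.023 (adjusted p = 2.93e-08). KDM5A was called in 3, and its largest value was -0.32 ± 0.030 (adjusted p = 9.76e-10) in shARID1A/B.2.3.

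Direct comparisons of the silenced conditions did not follow the labels alone. Between the 2 conditions of a label, 40 members differed for shARID1A (75.8% of all genes), 41 for shARID1B (66.0%) and 41 for shARID1A/B (74.9%). Between labels, on the mean of each label's conditions, 47 members differed for shARID1A against shARID1B (67.3%), 40 for shARID1A against shARID1A/B (59.2%) and 47 for shARID1B against shARID1A/B (70.2%). None of the 40 differences between shARID1A and shARID1A/B reached 0.5 in size, against 2632 of the 18584 genes tested. A mean over a label cancels opposite changes of its 2 conditions, such as those of PHF1 and PCGF3. Each mean over a label rests on more libraries than 1 condition does. Smaller differences can thus be called between labels than within them. The 3 counts between labels use the spread between replicates of 1 condition. When the 2 conditions of a label were pooled, so that their difference entered the spread, they were 17, 1 and 20.

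The closest conditions carried different labels. The median size of the members' log2 differences was 0.116 between shARID1A.2 and shARID1A/B.4.2 (0.244 over all genes) and 0.146 between shARID1A.4 and shARID1A/B.2.3 (0.249). The other pairs of conditions, Control included, lay between 0.206 and 0.343. Both pairs were chosen for a test after this had been seen. In that test 32 members differed between shARID1A.2 and shARID1A/B.4.2 (53.5% of all genes) and 35 between shARID1A.4 and shARID1A/B.2.3 (55.5%).

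Within the first pair, BMI1 differed by -0.0028 ± 0.034 (adjusted p = 0.955), EED by -0.08 ± 0.037 (adjusted p = 0.0758) and PHF1 by -0.04 ± 0.055 (adjusted p = 0.607). CBX6, YAF2, RYBP and ASXL3 were the 4 members that differed by 0.5 or more (23% of all genes did), at -0.80 ± 0.029 (adjusted p = 5.13e-17) for CBX6 and -0.68 ± 0.059 (adjusted p = 4.16e-10) for YAF2. Within the second pair, CBX6 was the 1 member past 0.5 (25.1% of all genes were), at 0.51 ± 0.029 (adjusted p = 1.95e-13), and ASXL2 and RYBP came next. ARID1A was low in 1 condition of each pair and near Control in the other, and ARID1B was low in all 4 conditions.

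Genes of related lists, which hold no member, were counted in the same way. Their counts are to be read against the shares of all genes called, 31.6% to 37.9% higher and 32.0% to 38.2% lower over the 6 conditions. Of 26 other Polycomb partners tested, 8 were higher and 12 lower in shARID1A.2, 14 and 8 in shARID1A.4, 7 and 12 in shARID1B.2, 9 and 8 in shARID1B.3, 15 and 7 in shARID1A/B.2.3, and 9 and 14 in shARID1A/B.4.2, so they had no common direction. SCML2, a PRC1 partner, differed by -1.22 in shARID1A.4, -1.72 in shARID1A/B.2.3 and 0.38 in shARID1B.3, and FBRSL1 was called higher in 5 conditions. MBD6, which binds PR-DUB, gave 1.18 in shARID1A.2 and -0.63 in shARID1A/B.2.3.

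Of 16 other trithorax and COMPASS partners, 5 were higher and 11 lower in shARID1A.2, 4 and 9 in shARID1A.4, 5 and 7 in shARID1B.2, 8 and 4 in shARID1B.3, 4 and 9 in shARID1A/B.2.3, and 4 and 10 in shARID1A/B.4.2. The lysine 4 demethylase KDM1B was called lower in all 6 conditions, from -0.99 in shARID1B.2 to -2.54 in shARID1A.4, and BOD1 was called higher in all 6, by 0.64 in shARID1A.4 at most. Of 14 other histone lysine methyltransferases, 6 were higher and 6 lower in shARID1A.2, 3 and 9 in shARID1A.4, 5 and 5 in both shARID1B.2 and shARID1B.3, 4 and 9 in shARID1A/B.2.3, and 7 and 5 in shARID1A/B.4.2. The lysine 36 methyltransferase NSD1 was at -1.20 in shARID1A.4, and the lysine 79 methyltransferase DOT1L was called higher in all 6 conditions, from 0.36 in shARID1B.2 to 1.01 in shARID1A.4. Of the 4 other histone H2A deubiquitinases, USP3 was called higher in all 6 conditions, and USP16 lower in 5, with -0.57 in shARID1B.3 as its largest value.

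Markers of cell state moved with the conditions too. The summed count of 10 adrenergic neuroblastoma genes was 178192 to 182756 in Control, 462462 to 479900 in shARID1A.4, 273700 to 279474 in shARID1A/B.2.3 and 124225 to 132632 in shARID1A.2, shARID1B.2 and shARID1A/B.4.2, most of it MYCN. By gene, 4 were called higher (background 37.0%) and 5 lower (36.6%) in shARID1A.4, with a median log2 difference of -0.10. In shARID1A/B.2.3, 6 were higher (35.2%) and 4 lower (34.0%), with a median of 0.31. The sum of 10 markers of other cell types was 15301 to 15561 in Control, 2739 to 2934 in shARID1A/B.4.2 and 17218 to 18407 in shARID1B.2, most of it the collagen gene COL1A1 and decorin DCN. Their part in the levels of the 53 genes was not tested.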

How the data were processed

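RNA-Seq was done on 21 SK-N-BE(2) libraries (TruSeq Stranded mRNA, Illumina NovaSeq). The submitters' processing notes name STAR 2.5.3a, RSEM 1.3.0, DESeq2 1.26.0 and GRCh38. The authors deposited 1 table whose values are a signal, reads divided by 1 size factor per library (0.8409 to 1.2945), and all values returned to whole reads within 0.01 read. The 3 tables of the authors' own comparisons (base means, fold changes, standard errors and p-values) were not used. Genes were filtered with edgeR 4.0.16 (filterByExpr), which left 18584 of 60728. The log2(value + 1) was fitted with limma 3.58.1 (trend, 7 conditions, R 4.3.3), with Benjamini-Hochberg adjustment over all genes tested; the fit was tested on simulated data. A gene was called at an adjusted p under 0.05, and 0.5 on the log2 scale was a further limit.

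Per role, up to 2 members in each direction, by mean change and called that way in at least 3 of 6 comparisons, were named with EZH1 and EZH2; other members, such as SUZ12, BMI1, PCGF3 and RYBP, were added because every member is accounted for. The members and lists were chosen with earlier results of these data known. Levels between genes were divided by the exon length in GENCODE 29, matched by identifier for all 53. The version of the identifier was the same for 11 of them, and 34 are overlapped by another annotated gene, so these lengths are approximate. Same-numbered libraries did not deviate together (mean r = -0.001 over 63 pairs, 0 above 0.1), so the replicate numbers pair no samples. Replicates differed by more than sampling noise in all 21 pairs of libraries of 1 condition. Alternatives were DESeq2 1.42.0 and edgeR on recovered reads, other scalings, pseudocounts and filters, other sample sets, a replicate block, and each library left out. Figures were drawn with matplotlib 3.10.9.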

Additional observations from a re-analysis of the deposited data

Results flagged for a closer look

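31 results were marked because the 2 conditions of 1 label were called on opposite sides of Control and differed from each other in the direct test (limma, adjusted p under 0.05 over all genes tested). Groups of 3 libraries are too small for a test of single outlying libraries, and none was made. Values are the log2 difference of the first condition minus the second.

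For shARID1A.2 minus shARID1A.4, 8 members were marked (17.1% of all genes tested behaved so), PHF1 (1.54), CBX8 (0.44), RNF2 (-0.69), PCGF2 (0.66), PCGF3 (-1.07), KDM2B (-0.47), RBBP5 (-0.40) and KDM5A (0.27). PHF1 and PCGF3 are the widest of these. With upper quartile scaling the shARID1A.2 value of RNF2 moved to 0.006, so its direction against Control there is uncertain.

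For shARID1B.2 minus shARID1B.3, 16 members were marked (14.5% of all genes), EZH1 (0.46), EZH2 (-0.59), EED (-0.70), CBX6 (-1.33), PCGF2 (-0.20), PCGF5 (1.23), SCMH1 (-0.35), RYBP (-1.17), ASXL2 (-0.63), BAP1 (0.31), KMT2C (-0.58), SETD1B (0.30), WDR5 (-0.47), ASH2L (-0.22), RBBP5 (0.45) and KDM5B (0.47). The shARID1B.2 value of PCGF2 moved to 0.02, and that of ASH2L to 0.016, when libraries were scaled to total reads. The proliferation genes also differed between these conditions, with a median of -0.62 in shARID1B.2 and -0.10 in shARID1B.3, and ARID1A was lower in shARID1B.2. The part of either was not tested.

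For shARID1A/B.2.3 minus shARID1A/B.4.2, 7 members were marked (18.5% of all genes), PHF1 (-1.51), PCGF3 (1.20), SCMH1 (0.56), RYBP (-0.92), KDM2B (0.44), KMT2E (0.30) and RBBP5 (0.47). KMT2E in shARID1A/B.4.2 moved to 0.013 when libraries were scaled to total reads. PHF1, PCGF3, KDM2B and RBBP5 were marked both here and for shARID1A.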

How the results depend on the processing

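The counts of members called moved by less than 1.5 times under the alternatives tried (both count models, 3 other scalings, 2 other pseudocounts, 2 other filters, only the libraries compared, a replicate block), other than those between labels. With the 2 conditions of a label pooled, the counts were 17 in place of 47 (shARID1A against shARID1B), 1 in place of 40 (shARID1A against shARID1A/B) and 20 in place of 47 (shARID1B against shARID1A/B), since differences within a label then entered the spread. Over all genes these were 3980, 1731 and 5177 in place of 12510, 11000 and 13039. Leaving out each library gave 44 to 46 members in shARID1A.2, 46 to 47 in shARID1A.4, 43 to 45 in shARID1B.2, 41 to 43 in shARID1B.3, 43 to 44 in shARID1A/B.2.3 and 42 to 44 in shARID1A/B.4.2.

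The replicate block (numbers that pair no samples) gave 46, 47, 46, 44, 44 and 45 members in the 6 comparisons with Control, as without it.

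Scaling to total reads moved the median of all genes to 0.187 in shARID1A.2, 0.145 in shARID1B.2 and 0.2 in shARID1A/B.4.2, and upper quartile scaling to 0.197, 0.127 and 0.176, so changes are to be read relative to that shift. Some values changed sign. Of the calls of the 53 members, those that did so with total reads were PHC1 (0.079) and WDR5 (0.033) in shARID1A.2, PCGF2 (0.02) and ASH2L (0.016) in shARID1B.2, and RBBP7 (0.085), KMT2A (0.107) and KMT2E (0.013) in shARID1A/B.4.2. With upper quartile these were RNF2 (0.006), PHC1 (0.09) and WDR5 (0.044) in shARID1A.2, PCGF2 (0.003) in shARID1B.2, and RBBP7 (0.061) and KMT2A (0.083) in shARID1A/B.4.2, and KMT2E in shARID1A.4 came to 0. PHC1, RBBP7 and KMT2A then became calls in the other direction, and under the other settings tried no call of a member changed sign. Among named values not called, the sign changed with total reads for KMT2E at 0.132 in shARID1A.2 and 0.108 in shARID1B.2, PHC2 at 0.097 and ASXL1 at 0.09 in shARID1B.2, RING1 at 0.033 in shARID1A/B.2.3, and YAF2 at 0.186 in shARID1A/B.4.2. With upper quartile they were KMT2E at 0.142 in shARID1A.2 and 0.09 in shARID1B.2, PHC2 at 0.079 and ASXL1 at 0.072 in shARID1B.2, BCORL1 at 0.011 in shARID1B.3, RING1 at 0.072 and MEN1 at 0.017 in shARID1A/B.2.3, and YAF2 at 0.161 in shARID1A/B.4.2. RING1 in shARID1A/B.2.3 was 0.018 with edgeR, 0.001 with DESeq2 and 0.017 with TMM, and YAF2 in shARID1A/B.4.2 was 0.034, 0.003 and 0.034. Leaving out 1 library gave -0.016 to 0.021 for RING1 and -0.005 to 0.046 for ASXL1 in shARID1A/B.2.3, -0.032 to 0.036 for YAF2 in shARID1A/B.4.2 and -0.105 to 0.002 for BCORL1 in shARID1B.3. The cause was not tested. Over all 53 members, calls lost under another setting were of log2 differences of at most 0.416 in size. CBX7, PCGF5 and ASXL3, with few reads, have the widest errors.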
